A study of Mus musculus with 25 samples.

Results

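The 9 genes described here encode signals that draw monocytes into tissue or keep them alive there, and the receptors that read those signals. They are the CC chemokines Ccl2, Ccl7, Ccl8 and Ccl12, the chemokine receptor Ccr2, the chemokine Cx3cl1 with its receptor Cx3cr1, and the growth factors Csf1 and Csf2. They were taken by gene symbol, so that 9 of the 55450 rows of the deposited count table were members. Their RNA was followed in 25 melanomas grown in C57BL/6 mice from the line B2905 (M4). Of 40 implanted mice, 30 were given a CTLA-4 antibody, directed at an inhibitory receptor of T cells, and 5 were given an IgG2b isotype antibody, each at 10 mg/kg, starting when tumours averaged 75 mm3. Among 20 sequenced anti-CTLA-4 tumours, the labels called 8 responders (the tumour shrank), 6 stable and 6 non-responders (the tumour kept growing), and 5 IgG2b tumours were the controls. All groups share the host strain and the implanted line, so the values describe 1 tumour line, and the 5 untreated mice were not analysed here.

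Circulating monocytes leave the bone marrow and enter inflamed tissue largely through CCR2, which in mice binds CCL2, CCL7 and CCL12, while mouse CCL8 has been described mainly as a ligand of CCR8. CX3CL1, or fractalkine, is a chemokine tethered to the cell surface that can be shed, and its receptor CX3CR1 marks patrolling monocytes and many tissue macrophages. CSF1 (M-CSF) sustains monocytes and macrophages through CSF1R, and CSF2 (GM-CSF), a product of activated lymphocytes among other cells, acts on granulocytes, monocytes and dendritic cells. In tumours these signals are known for supplying the macrophages that surround and infiltrate the malignant cells.

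Total counts were 8.76 to 34.3 M per tumour. Protein-coding genes took 23.8% to 74.3% of the counts in 7 of 8 responders, 87.0% in responder 5 and 82.9% to 89.2% in the other 17 tumours. The leading numbers of the samples' descriptions ran in blocks by group, and the labels do not say what they number. Summed RNA of 8 melanocytic genes was 228 to 505 counts per M counts (CPM) in stable tumours, 304 to 725 in responders, 726 to 14061 in non-responders and 10684 to 17512 in controls. Ctla4 itself had medians of 12.7 CPM in stable tumours, 10.9 in responders, 4.25 in non-responders and 0.967 in controls, which does not check whether the antibody was delivered. In bulk tumour RNA, fewer cells of a type and less RNA per cell cannot be told apart. The labels do not say how tumours relate to mice beyond the group sizes, so p-values measure the spread between these tumours.

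Every one of the 9 genes had its highest group mean in stable tumours and its lowest in IgG2b controls. For the 4 CC chemokines and both chemokine receptors the non-responder mean lay above the responder mean, and for Cx3cl1, Csf1 and Csf2 it lay below. Differences were tested with edgeR's quasi-likelihood test across 18031 genes, and a gene is called when its Benjamini-Hochberg adjusted p is under 0.05. All 9 genes passed the filter on low counts. Log2 fold changes are differences of fitted group levels, with their standard errors (SE).

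Against controls, 8 of the 9 genes rose in stable tumours, where 22.2% of all tested genes rose. The median log2 fold change over the 9 genes was 1.63, beside 0.02 over all tested genes. In non-responders 6 of the 9 rose, where 10.6% of all tested genes rose, with medians of 1.19 and 0.04. In responders 4 of the 9 rose, where 36.1% of all tested genes rose, with medians of 1.03 and 0.16. The share of the 9 genes called was thus above the share of all genes in stable tumours and non-responders and near it in responders. These 3 comparisons share the same 5 control tumours. The 6 calls in non-responders depended on single tumours: 3 were left without non-responder 4, non-responder 6 or control 2, and 2 without control 4 or in a fit of the 2 groups alone. Leaving out single tumours took the adjusted p of Ccl7, Ccr2 and Cx3cr1 up to 0.0801, 0.0873 and 0.0752.

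Among the treated groups, 4 of the 9 genes (Ccl7, Ccl8, Ccr2 and Cx3cl1) were lower in responders than in stable tumours, where 17.8% of all tested genes were lower. The medians were -0.82 for the 9 genes and 0.01 for all tested genes. Cx3cl1 and Csf1 rose from non-responders to stable tumours, where 7.08% of all tested genes were higher, with medians of 0.68 and -0.02. Between responders and non-responders 0 of the 9 genes were called by edgeR, although 48.9% of all tested genes were called in either direction. At an unadjusted p under 0.05, edgeR had 2 of the 9 (Ccl12 and Csf1), DESeq2 called 1 (Csf1) after adjustment and limma on RPKM called 2 (Ccl12 and Csf1).

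**Figure D1:**
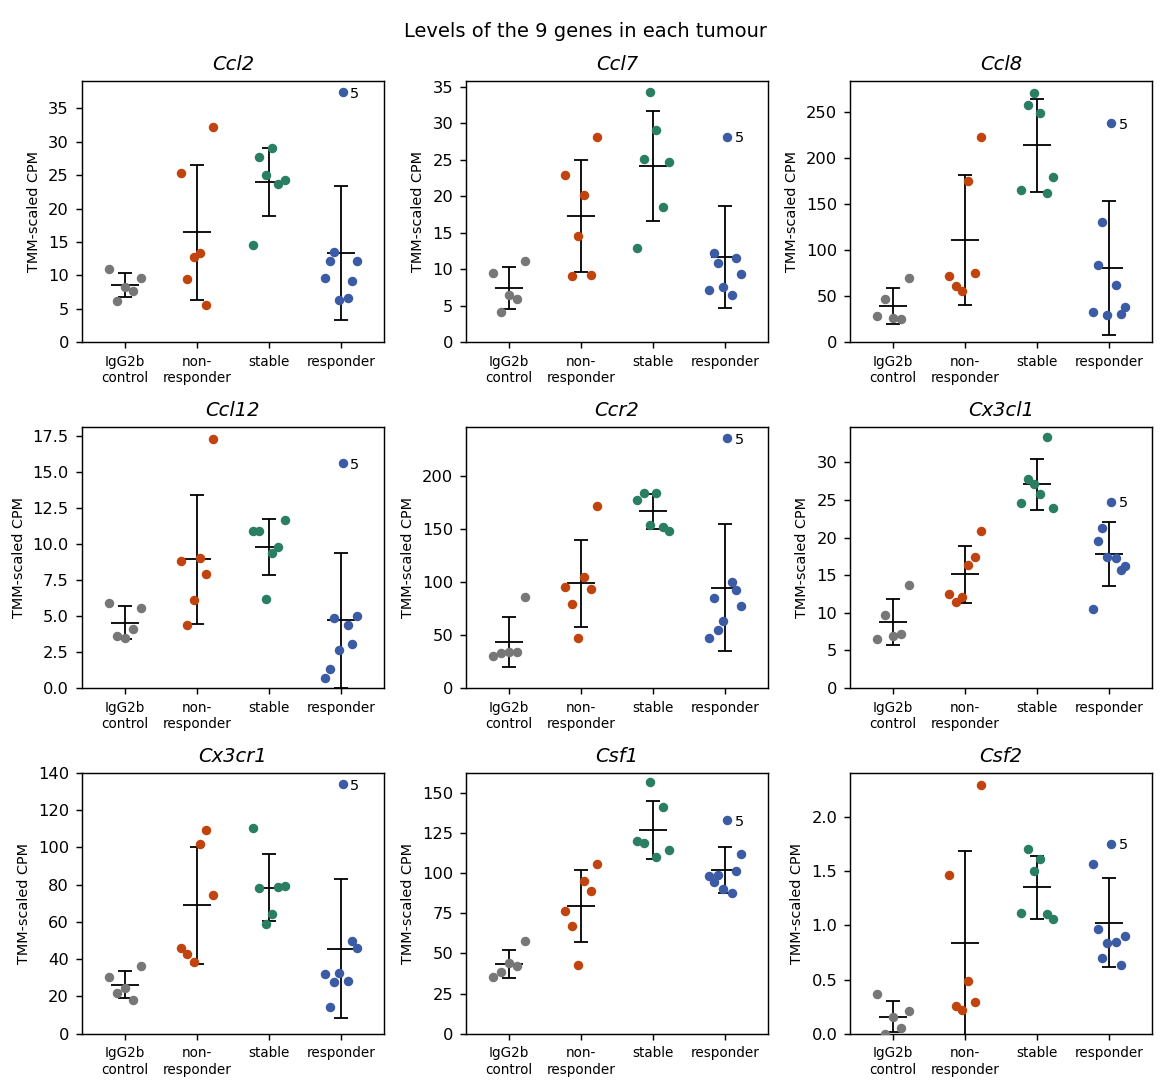
Level of each of the 9 genes in each of 25 tumours, as TMM-scaled CPM on a linear axis that differs between panels. Points are tumours, the long line is the group mean and the bars are 1 SD, cut off at 0; responder 5 is numbered. All 9 panels have their highest mean in the stable group and their lowest in the IgG2b controls, and responder 5 is the highest responder in each.

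**Figure D2:**
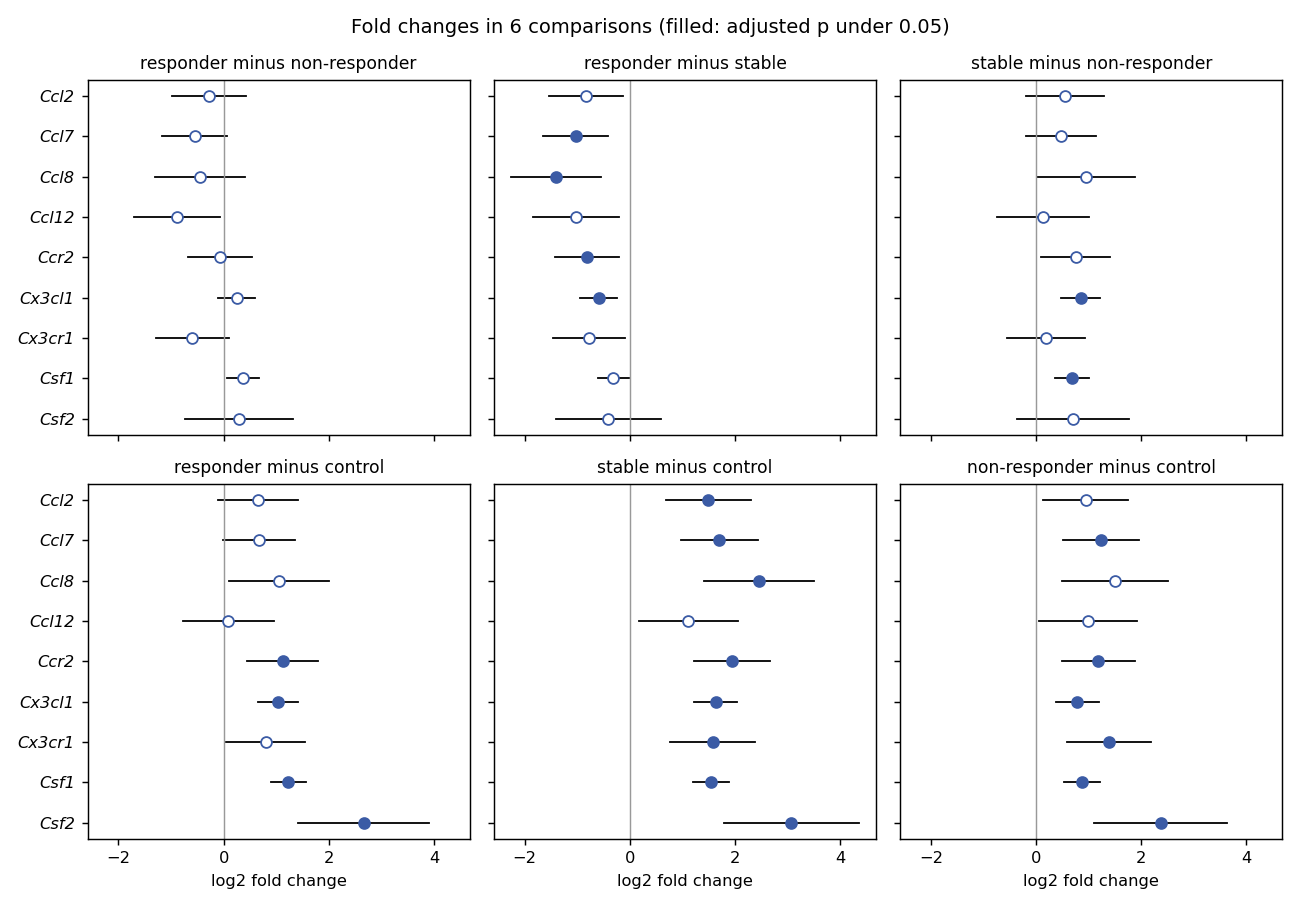
Log2 fold change of each gene (horizontal axis) in the 6 comparisons, with bars for the 95% interval and filled points for an adjusted p under 0.05 in edgeR. Stable tumours against controls have 8 filled points, responders against non-responders have 0.

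Levels between genes were compared on the RPKM scale, which is per length. Ccl8 had the highest mean in every group, from 56.8 ± 28.5 RPKM (SD, n = 5) in controls to 298 ± 66.2 (SD, n = 6) in stable tumours. Ccr2 came next in every group, with 10.2 ± 5.44 RPKM in controls and 38.6 ± 4.11 in stable tumours. Its values did not overlap those of Ccl8 in controls, non-responders or stable tumours, but in responders the highest Ccr2 value (53.3 RPKM) exceeded the lowest Ccl8 value (47.1 RPKM). Csf1, Ccl7, Ccl2, Cx3cr1 and Ccl12 filled the next places in an order that changed between groups. In stable tumours, for example, Csf1 (25.1 ± 2.83 RPKM), Ccl7 (24.8 ± 7.46), Ccl2 (21.1 ± 4.22) and Cx3cr1 (18.5 ± 4.39) lay within their spread of each other. Cx3cl1 was eighth, from 2.35 ± 0.851 RPKM in controls to 7.13 ± 0.823 in stable tumours, and Csf2 was the lowest in every group, with 0.144 ± 0.139 RPKM in controls and 1.12 ± 0.262 in stable tumours. The values of Cx3cl1 and Csf2 overlapped in none of the 4 groups.

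Ccl2, Ccl7, Ccl12 and Ccl8 lie in this order, all on the plus strand, within 81.2 kb of chromosome 11 in GRCm38, with the eosinophil chemokine Ccl11 between Ccl7 and Ccl12. Ccl2 (ENSMUSG00000035385.5) spans chr11:82035571-82037453, Ccl7 (ENSMUSG00000035373.2) spans chr11:82045712-82047525, Ccl12 (ENSMUSG00000035352.3) spans chr11:82101845-82103400 and Ccl8 (ENSMUSG00000009185.2) spans chr11:82115185-82116799. Ccl2 overlaps Gm17268, annotated as protein-coding on the other strand, which had 0 counts in all 25 tumours. RefSeq promoters (GRCm38.p6) were at hand for 7 of the 9 genes, Ccl8 and Ccl12 among the 4 chemokines. The 250 bases before the start of each are shown because both windows hold a TATA box (TATAAA, sense strand) close to the start and a PU.1 core (GAGGAA, or TTCCTC where it reads on the other strand), which stand in capitals. The Ccl8 window is chr11:82114935-82115184 and the Ccl12 window chr11:82101595-82101844, both plus strand.
Ccl8: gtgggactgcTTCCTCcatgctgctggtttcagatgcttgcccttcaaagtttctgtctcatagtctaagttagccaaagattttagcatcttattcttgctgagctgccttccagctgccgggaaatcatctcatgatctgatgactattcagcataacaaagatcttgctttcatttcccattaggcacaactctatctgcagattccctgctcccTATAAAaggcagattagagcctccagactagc
Ccl12: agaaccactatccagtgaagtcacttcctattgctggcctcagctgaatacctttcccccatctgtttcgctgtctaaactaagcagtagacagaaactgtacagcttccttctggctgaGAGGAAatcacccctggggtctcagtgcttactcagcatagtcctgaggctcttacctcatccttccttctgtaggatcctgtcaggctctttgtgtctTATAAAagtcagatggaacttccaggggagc
TATAAA lies 32 to 27 bases before the start of Ccl8 and 31 to 26 bases before that of Ccl12. Of 32851 promoter windows of the same length, 7.59% hold TATAAA on the sense strand and 23.25% hold GAGGAA on either strand. Of the other 5 promoters, that of Cx3cl1 also held both motifs, with TATAAA 6 to 1 bases before the start. No matches overlapped in these windows, and a match is a description of letters, not of a bound site.

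Ccl8 was the most abundant of the CC ligands and had the widest range between tumours in absolute CPM. Relative to its level Ccl12 ranged more widely, from 0.670 CPM in responder 1 to 17.3 in non-responder 6. The 5 controls had 28.3, 46.9, 25.8, 24.8 and 69.6 CPM of Ccl8. Non-responders ranged from 56.1 through a median of 74.0 to 223 CPM, stable tumours from 162 through 214 to 271, and responders from 29.5 through 50.5 to 238. All 6 stable tumours lay above all 5 controls, and 7 of 8 responders lay below every stable tumour, with responder 5 the exception. Ccl8 rose by 2.45 log2 (SE 0.53) from controls to stable tumours (edgeR adjusted p = 0.000615) and was lower in responders than in stable tumours, with a log2 fold change of -1.40 (SE 0.44, edgeR adjusted p = 0.0166). Against controls its log2 fold change was 1.5 (SE 0.51, edgeR adjusted p = 0.0511) in non-responders and 1.06 (SE 0.48, edgeR adjusted p = 0.0582) in responders, both short of the threshold.

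Ccl7, which like Ccl2 draws CCR2-bearing monocytes, had 9.47, 4.13, 6.50, 5.86 and 11.1 CPM in the 5 controls. It ranged from 9.12 through a median of 17.3 to 28.1 CPM in non-responders, from 12.9 through 24.9 to 34.3 in stable tumours and from 6.42 through 10.1 to 28.2 in responders. Stable tumours did not overlap controls, 4 of 6 non-responders exceeded all controls, and the responders except responder 5 had at most 12.2 CPM, below every stable tumour. Ccl7 rose from controls to stable tumours by 1.70 log2 (SE 0.37, edgeR adjusted p = 0.000698) and to non-responders by 1.23 (SE 0.37, edgeR adjusted p = 0.0271). From stable tumours to responders its log2 fold change was -1.03 (SE 0.32, edgeR adjusted p = 0.0157).

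Ccl2, the best known attractant of CCR2-bearing monocytes, followed the same tumours. Controls had 11.0, 6.23, 8.29, 7.73 and 9.57 CPM. Non-responders ran from 5.62 through a median of 13.1 to 32.1 CPM, stable tumours from 14.5 through 24.7 to 29.0 and responders from 6.29 through 10.9 to 37.4. Stable tumours lay above all controls, whereas non-responders and responders reached both below the stable range and above it. Ccl2 rose in stable tumours by 1.49 log2 over controls (SE 0.41, edgeR adjusted p = 0.00535) and was called by edgeR in no other comparison. Its value for responders against stable tumours was -0.83 (SE 0.36, edgeR adjusted p = 0.0664), which DESeq2 and limma called.

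Ccl12, the mouse chemokine closest to Ccl2 in the monocyte-attracting role and also a CCR2 ligand, was called in none of the 6 comparisons by edgeR, which had it at an unadjusted p under 0.05 in 4 of them. DESeq2 called it in 2 and limma on log2(RPKM + 1) in 3. Controls had 5.93, 3.57, 3.48, 4.08 and 5.54 CPM, and all 6 stable tumours (6.19 to 11.6, median 10.3) lay above them. Non-responders spanned 4.36 to 17.3 CPM with a median of 8.4, and responders spanned 0.670 to 15.6 with a median of 3.71. The lowest of these, in responder 1, rested on 3 counts. The responder median was thus the lowest of the 4 groups, and 5 of 8 responders lay below all non-responders. The log2 fold change was 1.11 (SE 0.48, edgeR adjusted p = 0.0638) for stable tumours against controls and 0.09 (SE 0.44) for responders against controls, a sign that turned under 6 alternatives. For responders against non-responders it was -0.89 (SE 0.42, edgeR adjusted p = 0.0787).

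Ccl8 also shifted the mix of the 4 CC ligands. The summed RPKM of the 4 genes had medians of 368 in stable tumours, 162 in non-responders, 113 in responders and 66.8 in controls. Ccl8 made up a median of 84.0% of that sum in stable tumours (79.3% to 84.8%), 78.3% in non-responders (62.7% to 84.1%), 76.6% in responders (61.1% to 85.7%) and 64.9% in controls (58.6% to 81.5%). Stable tumours thus had the narrowest range, and control 2, with 81.5%, fell inside it. Ccl12 had its highest median share in controls (9.55%) and its lowest in stable tumours (4.33%), although its own level was highest there. Responders 7 and 8 and non-responder 1 stood at the low end for Ccl8, with 61.1%, 61.6% and 62.7%, near the lowest controls.

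**Figure D3:**
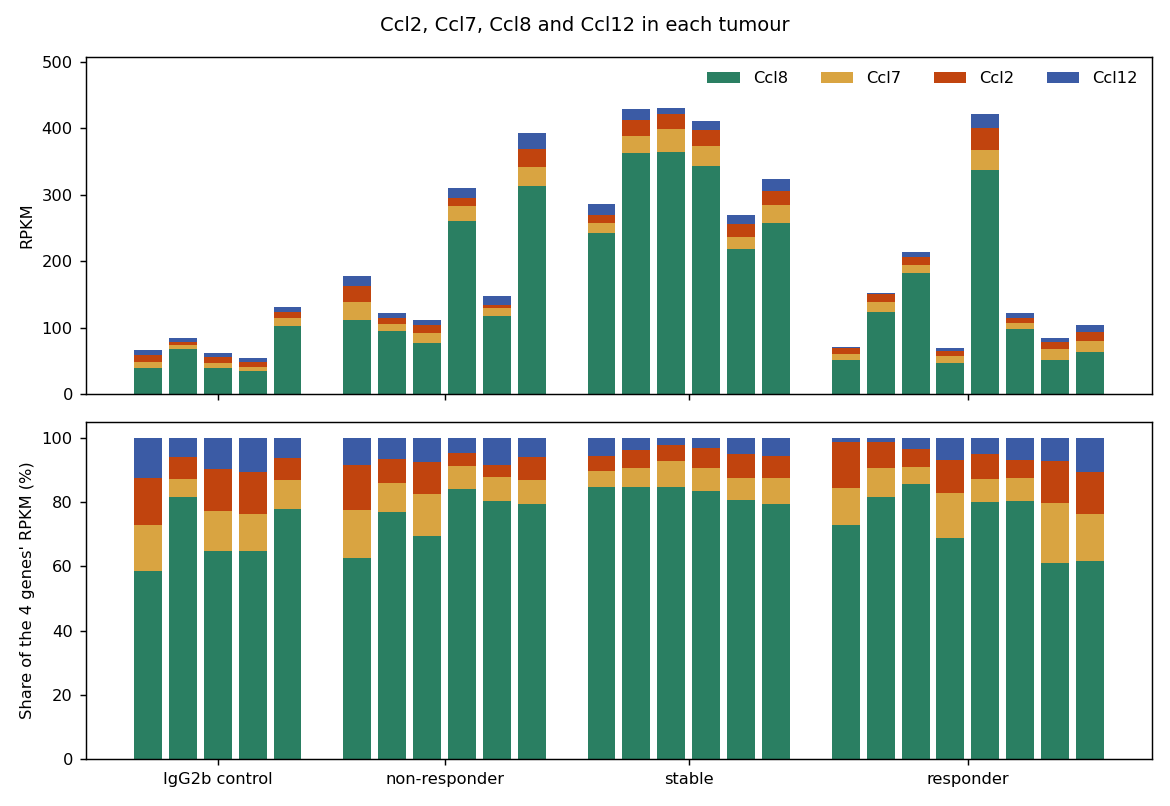
Upper panel: stacked RPKM of Ccl8, Ccl7, Ccl2 and Ccl12 in each tumour, 1 bar per tumour in replicate order within its group. Lower panel: the same values as percent of their sum. Stable tumours sum to 270 to 430 RPKM with Ccl8 at 79.3% to 84.8%.

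Ccr2, the receptor that carries monocytes out of the marrow and into tissue, spans chr9:124101950-124113557 (plus strand, ENSMUSG00000049103.14). The deposited Ccr2 value was not a whole number in any of the 25 tumours, so the authors' counting split reads between similar genes and the level is uncertain to that extent. Controls had 30.4, 33.0, 34.2, 33.6 and 86.2 CPM. Non-responders ran from 47.5 through a median of 94.7 to 172 CPM, stable tumours from 148 through 166 to 184 and responders from 47.1 through 81.0 to 236. Control 5 stood far above the other 4 controls and inside the range of non-responders and responders, while stable tumours lay above every control and above 7 of 8 responders. Ccr2 rose over controls in all 3 treated groups, by 1.94 log2 (SE 0.37, edgeR adjusted p = 0.000157) in stable tumours, 1.19 (SE 0.36, adjusted p = 0.0278) in non-responders and 1.12 (SE 0.34, adjusted p = 0.00616) in responders. Responders were lower than stable tumours, with a log2 fold change of -0.82 (SE 0.31, edgeR adjusted p = 0.0406), and this call was lost on leaving out any of 12 single tumours, with adjusted p up to 0.0771.

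Cx3cl1, the tethered chemokine, was measured at chr8:94772009-94782427 (plus strand, ENSMUSG00000031778.13). Controls had 6.53, 9.65, 6.89, 7.12 and 13.7 CPM. Non-responders ranged from 11.4 through a median of 14.4 to 20.8 CPM, stable tumours from 24.0 through 26.5 to 33.3 and responders from 10.5 through 17.4 to 24.8. Stable tumours overlapped neither controls nor non-responders, and responder 5 was the only responder within their range. Cx3cl1 was called in 5 of the 6 comparisons. It rose over controls by 1.63 log2 (SE 0.21, edgeR adjusted p = 2.25e-06) in stable tumours, 1.03 (SE 0.20, adjusted p = 8.90e-05) in responders and 0.79 (SE 0.20, adjusted p = 0.0111) in non-responders. Stable tumours exceeded non-responders by 0.84 (SE 0.19, edgeR adjusted p = 0.00653), a call that held on leaving out each of the 25 tumours, and responders were lower than stable tumours, with -0.60 (SE 0.18, adjusted p = 0.0134).

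Cx3cr1, its receptor, spans chr9:119901616-120069879 on the minus strand (ENSMUSG00000052336.7). This gene model overlaps 5 other protein-coding genes, among them Gorasp1, Csrnp1 and Xirp1 on the same strand with median counts of 387, 411 and 254. How the counting used strand is not given in the sources used here, so the level is uncertain in that respect. Counts of Cx3cr1, Gorasp1, Csrnp1 and Xirp1 were whole numbers in every tumour, so no reads appeared split between them. Controls had 30.5, 21.8, 24.7, 18.2 and 36.2 CPM. Non-responders ran from 38.4 through a median of 60.3 to 110 CPM, stable tumours from 58.7 through 78.6 to 110 and responders from 14.3 through 32.3 to 134. Non-responders and stable tumours both lay wholly above the controls and overlapped each other, while 4 of 8 responders lay within the range of the controls, 1 below it and 3 above. Cx3cr1 rose over controls by 1.58 log2 (SE 0.41, edgeR adjusted p = 0.00318) in stable tumours and by 1.39 (SE 0.41, adjusted p = 0.0235) in non-responders. In responders the log2 fold change against controls was 0.80 (SE 0.38, edgeR adjusted p = 0.0698). The ligand and its receptor thus ranked the treated groups differently: mean Cx3cl1 was higher in responders (17.8 ± 4.23 CPM, SD, n = 8) than in non-responders (15.1 ± 3.73, SD, n = 6) and mean Cx3cr1 was lower (45.6 ± 37.3 against 68.9 ± 31.3), neither difference being called.

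Csf1, which keeps macrophages alive and dividing, had the lowest adjusted p of the 9 genes against controls in each treated group. It spans chr3:107741048-107760469 on the minus strand (ENSMUSG00000014599.10). Its 250 bases before the RefSeq start, chr3:107760470-107760719 on the minus strand in GRCm38.p6, are shown because they hold the single NF-kB match (GGG, 3 free bases, TTCC; either strand) among the 7 promoters, a family of factors known to act at this gene. The capitals mark that match, which reads on the other strand, 154 to 145 bases before the start, and 4.65% of the 32851 windows hold 1.
Csf1: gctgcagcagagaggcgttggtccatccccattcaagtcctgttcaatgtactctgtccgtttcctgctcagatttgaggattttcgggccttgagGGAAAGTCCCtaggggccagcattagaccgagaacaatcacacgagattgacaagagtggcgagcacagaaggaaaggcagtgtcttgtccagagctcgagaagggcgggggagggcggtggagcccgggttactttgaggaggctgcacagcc
AP-1 (TGANTCA), GAS (TTCNNNGAA), ISRE core (GAAA, 2 free bases, GAAA) and C/EBP (TTGCGCAA) letters were searched on both strands in the same 7 windows with 0 matches, and are held by 6.75%, 7.02%, 2.98% and 0.16% of all windows.

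Controls had 35.2, 38.4, 44.1, 41.9 and 57.9 CPM of Csf1. Non-responders ranged from 42.7 through a median of 82.6 to 105 CPM, stable tumours from 110 through 119 to 156 and responders from 87.3 through 98.3 to 133. All 8 responders and all 6 stable tumours lay above all 5 controls, and all 6 stable tumours lay above all 6 non-responders. Csf1 rose over controls by 1.54 log2 (SE 0.18, edgeR adjusted p = 9.64e-07) in stable tumours, 1.23 (SE 0.17, adjusted p = 2.25e-06) in responders and 0.86 (SE 0.17, adjusted p = 0.00174) in non-responders. Stable tumours exceeded non-responders by 0.68 (SE 0.16, edgeR adjusted p = 0.00883). Responders differed from non-responders by 0.36 (SE 0.15, edgeR adjusted p = 0.0540), just short of the threshold, and passed it in DESeq2, in limma on RPKM and in 3 of the other edgeR settings.

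Csf2, the growth factor GM-CSF, was the scarcest of the 9 genes and lies at chr11:54247271-54249667 (minus strand, ENSMUSG00000018916.5), overlapping the antisense gene Gm12223, which had at most 1 count in any tumour. Controls had 11, 0, 4, 2 and 4 counts, non-responders 5 to 60, stable tumours 17 to 37 and responders 6 to 39. Pooled over each group's scaled libraries, 21 counts gave 0.152 CPM in controls (95% exact Poisson interval 0.0938 to 0.232), 108 gave 0.808 in non-responders (0.663 to 0.976), 158 gave 1.37 in stable tumours (1.16 to 1.60) and 113 gave 1.04 in responders (0.858 to 1.25), intervals that cover counting error only. Every stable tumour and every responder lay above every control, while 3 of 6 non-responders lay among the controls and the count of 60 came from non-responder 6. Csf2 rose over controls by 3.07 log2 (SE 0.65, edgeR adjusted p = 0.000511) in stable tumours, 2.67 (SE 0.64, adjusted p = 0.000853) in responders and 2.37 (SE 0.65, adjusted p = 0.0152) in non-responders, and no difference among the treated groups was called by edgeR (unadjusted p = 0.208 to 0.575), DESeq2 or limma. Leaving out non-responder 6 or control 4 ended the call in non-responders, with log2 fold changes down to 1.69 and adjusted p up to 0.0734.

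The same few tumours carried the high values of most of the 9 genes. Responder 5 had the highest value among responders for all 9 genes, and non-responder 6 had the highest among non-responders for 8, Cx3cr1 being the exception. Summed macrophage RNA (16 genes, among them Adgre1, Csf1r and C1qa) was also highest in those tumours, with 14438 CPM in responder 5 against 3710 to 9038 in the other responders, and 11351 in non-responder 6 against 1917 to 6650 in the other non-responders. Summed T cell and NK cell RNA peaked in the same tumours of each group. Summed monocyte RNA did not, with 4713 CPM in responder 5 against 12335 in responder 3. It was 3023 CPM in non-responder 6 against 5911 in non-responder 1. A sum in CPM follows the most abundant genes of its list, so it does not stand for each monocyte gene. Non-responder 6 also had the lowest melanocytic sum of its group (726 CPM), and non-responder 3, with the highest melanocytic sum (14061 CPM), had the lowest summed level of the 9 genes (230 CPM). Without responder 5, edgeR called 5 of the 9 genes lower in responders than in non-responders, where 27.4% of all tested genes were lower: Ccl2 (-0.72, adjusted p = 0.0418), Ccl7 (-0.88, 0.00993), Ccl8 (-0.92, 0.0467), Ccl12 (-1.47, 0.000877) and Cx3cr1 (-1.06, 0.00208). Without it 8 of the 9 were lower in responders than in stable tumours, where 24.4% of all tested genes were lower. In this fit every responder had a lower protein-coding share (23.8% to 74.3%) than every other tumour (82.9% to 89.2%). Responder group and share therefore cannot be told apart in it.

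Responder 5 was likewise the only responder with a protein-coding share like that of the other groups. Ccl8 was at 29.5 to 32.6 CPM in the 3 responders with the lowest shares (responders 1, 4 and 7, 23.8% to 62%) and at 84.2, 131 and 238 CPM in the 3 with the highest (responders 2, 3 and 5, 72.7% to 87.0%), and the responders between, 8 and 6, had 38.7 and 62.2 CPM. Csf1 showed no such order, with 98.0 CPM at the lowest share and 87.3 to 112 CPM in the other responders except responder 5. With protein-coding share entered as a covariate, 0 of the 9 genes and 0 of all 18031 genes were called by edgeR between responders and stable tumours (0 and 2296 at an unadjusted p under 0.05), Ccl8 having a log2 fold change of -0.68, and all 9 genes were called higher in responders than in controls, where 25.9% of all tested genes were higher and Ccl8 had 1.83. Between responders and non-responders the same fit called 1810 of all genes and 0 of the 9 (2 at an unadjusted p under 0.05) and turned Ccl2, Ccl8, Ccl12 and Ccr2 to positive values. Except for responder 5, the share set responders apart from all other tumours. The fit therefore cannot tell responder group and share apart, and its values are not levels corrected for composition. Leaving out responders 1 and 4, a choice made after seeing the data, left Cx3cl1 (-0.51, edgeR adjusted p = 0.049) as the only 1 of the 9 called lower in responders than in stable tumours, where 8.01% of all tested genes were lower.

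**Figure D4:**
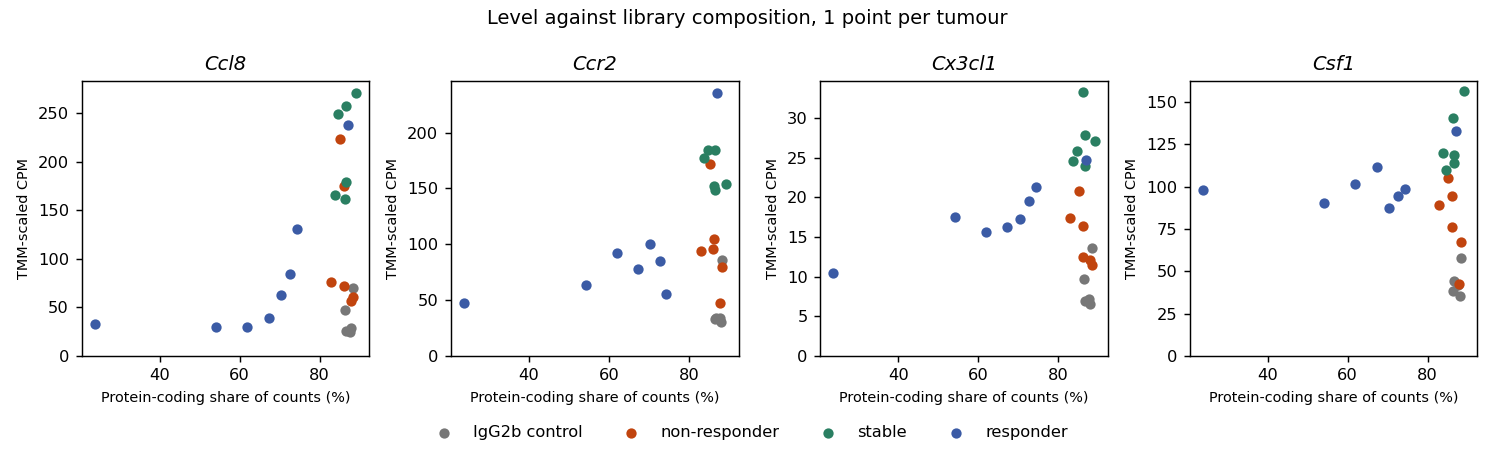
Level of Ccl8, Ccr2, Cx3cl1 and Csf1 (TMM-scaled CPM, linear axis) against the protein-coding share of counts in percent, 1 point per tumour. 7 of 8 responders lie between 23.8% and 74.3%, apart from the other tumours at 82.9% to 89.2%; among responders Ccl8 is highest at 87.0%.

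The receptors of the 2 growth factors, with other chemokine receptors and scavengers, rose in treated tumours together with the 9 genes. The list held 9 genes: the CSF1 receptor Csf1r, the GM-CSF receptor chains Csf2ra and Csf2rb, the IL-3 receptor chain Csf2rb2, the G-CSF receptor Csf3r, the chemokine receptors Ccr1 and Ccr3, and the scavengers Ackr1 and Ackr2. All 9 receptors and scavengers rose over controls in stable tumours and in responders, and 8 of 9 in non-responders, with Ccr1 at 0.80 (SE 0.46, edgeR adjusted p = 0.259). The shares of all tested genes that rose were 22.2%, 36.1% and 10.6% in the same order. The median log2 fold changes over the list were 2.60 in stable tumours, 3.05 in responders and 1.53 in non-responders. Csf3r, Csf2ra, Csf2rb and Csf2rb2 were the 4 of 9 that were higher in responders than in non-responders, where 25.2% of all tested genes were higher. In stable tumours 6 of the 9 receptors and scavengers were higher than in non-responders, where 7.08% of all tested genes were higher. Between responders and stable tumours 0 of these 9 receptors and scavengers were called by edgeR and 2 had an unadjusted p under 0.05, while DESeq2 called 2 and limma called 1.

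Csf2ra, the ligand-binding chain of the GM-CSF receptor, had medians of 84.9 CPM in responders (60.2 to 144), 61.5 in stable tumours (53.9 to 83.1), 28.4 in non-responders (12.5 to 52.6) and 10.1 in controls (7.10 to 16.1). Every responder and every stable tumour lay above every non-responder, and responders exceeded non-responders by 1.56 log2 (SE 0.25, edgeR adjusted p = 8.41e-05). For its ligand Csf2 the same difference was 0.30 (SE 0.52, edgeR adjusted p = 0.651). For Csf1r, responders and non-responders differed by 0.38 (SE 0.26, edgeR adjusted p = 0.227), while stable tumours exceeded non-responders by 1.00 (SE 0.28, edgeR adjusted p = 0.0196), as Csf1 did.

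Of 13 other chemokines and myeloid growth factors, 11 passed the low-count filter. 9 rose over controls in stable tumours and 9 in responders, and 4 did so in non-responders (Ccl4, Ccl5, Il34 and Flt3l). The shares of all tested genes that rose were 22.2%, 36.1% and 10.6% in the same order. Ccl11, which lies between Ccl7 and Ccl12, rose in stable tumours by 3.14 log2 over controls (SE 0.59, edgeR adjusted p = 0.000157) and was lower in responders than in stable tumours, with -1.56 (SE 0.47, edgeR adjusted p = 0.0148). Il34, the second ligand of the CSF1 receptor, had medians of 12.7 CPM in stable tumours, 11.4 in responders, 9.25 in non-responders and 4.97 in controls, an order like that of Csf1. Flt3l, a growth factor for dendritic cells, and Vegfa, an angiogenic factor, were higher in responders than in non-responders (1.10 and 0.84) and than in stable tumours (0.57 and 0.67), against the direction of the 4 members lower there. Il3 had 0 counts in all controls, stable tumours and responders.

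A further list held cytokines and transcription factors known to induce Ccl2 or Csf1, with genes that are neither, such as the NF-kB inhibitor Tnfaip3. It had 16 genes, 15 of them tested. 13 rose over controls in stable tumours, 13 in responders and 9 in non-responders, and the immediate early gene Fos fell in responders and in non-responders. Over all tested genes, 22.2%, 36.1% and 10.6% rose in the same order. Among the list's largest changes, Il1b was 5.36 log2 (SE 0.62), Ifng 4.76 (SE 0.69) and Il1a 4.75 (SE 0.74) higher in stable tumours than in controls, all with an edgeR adjusted p under 0.05. 6 genes, among them Cebpb (1.66) and Il1b (1.52), were higher in responders than in non-responders, where 25.2% of all tested genes were higher. Of the 9 members, edgeR called none there, DESeq2 called 1 and limma on log2(RPKM + 1) called 2. In stable tumours 8 genes of this list, among them Il1b (2.14) and Cebpb (1.86), were higher than in non-responders. Of all tested genes 7.08% were higher in that comparison, and of the 9 members Cx3cl1 and Csf1 were.

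Many genes of the cells that carry these receptors were called in the same comparisons. Summed monocyte RNA, which follows the most abundant genes of its list, overlapped controls in non-responders and responders. Of 14 monocyte genes, 10 rose over controls in stable tumours, 10 in non-responders and 7 in responders. Their median log2 fold changes were 2.25, 1.37 and 1.28 in the same order. Over all tested genes, 22.2%, 10.6% and 36.1% rose in the same order. Their summed RNA had medians of 4922 CPM in stable tumours (4452 to 6385) and 3439 in non-responders (2994 to 5911). The medians were 3920 in responders (2021 to 12335) and 3616 in controls (2042 to 4316). Between responders and non-responders, 2 monocyte genes were higher and 3 lower, where 48.9% of all tested genes were called. Ly6c2, the marker of classical CCR2-bearing monocytes in mice, had medians of 51.7 CPM in stable tumours, 27.4 in non-responders, 22.6 in responders and 3.20 in controls. Plac8, Ms4a4c and Ace were lower in responders than in stable tumours, by -1.59, -1.11 and -1.02 log2, where 17.8% of all tested genes were lower. Of 16 macrophage genes, 15 rose over controls in stable tumours, 14 in responders and 11 in non-responders. In non-responders 7 were lower than in stable tumours, as were 7.08% of all tested genes. In responders 10 were lower and 1 (Mertk) higher than in stable tumours. Of all 18031 tested genes, 3202 were lower and 3689 higher in that comparison. The macrophage genes Fcgr1 (-1.18) and Adgre1 (-1.10) were lower there to an extent like that of Ccl7 and Ccl8, and summed macrophage RNA was 8843 to 13376 CPM in stable tumours and had a median of 5083 in responders.

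Markers of the other cells that make these ligands moved less evenly. Of 8 endothelial genes, a cell type known to display CX3CL1, 4 were lower in stable tumours than in non-responders (Kdr -1.35, Cdh5 -0.86, with Egfl7 and Emcn), where Cx3cl1 was higher, and 4 were lower in responders than in stable tumours, where Cx3cl1 was lower too. Of all 18031 tested genes, 1417 were lower in the first comparison and 3202 in the second. The summed endothelial RNA was 177 to 343 CPM in non-responders, 109 to 183 in stable tumours and 86.0 to 150 in responders. Of 10 fibroblast and pericyte genes, 6 rose over controls in stable tumours, 5 in non-responders and 4 in responders, and the summed RNA was 7647 to 15575 CPM in stable tumours, 6089 to 14007 in non-responders and 7155 to 16122 in responders. All 8 T cell genes and all 6 NK cell genes rose over controls in each treated group. Of 7 neutrophil genes tested, 5 rose over controls in stable tumours, 7 in responders and 2 in non-responders. Over all tested genes, 22.2% rose over controls in stable tumours, 36.1% in responders and 10.6% in non-responders. The fibroblast and pericyte count in responders was near that 36.1%. No defining marker of the macrophage, endothelial or fibroblast lists was at 0 in any group. The part of these lists, and of the monocyte and macrophage lists, in the results for the 9 genes was not tested.

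**Figure D5:**
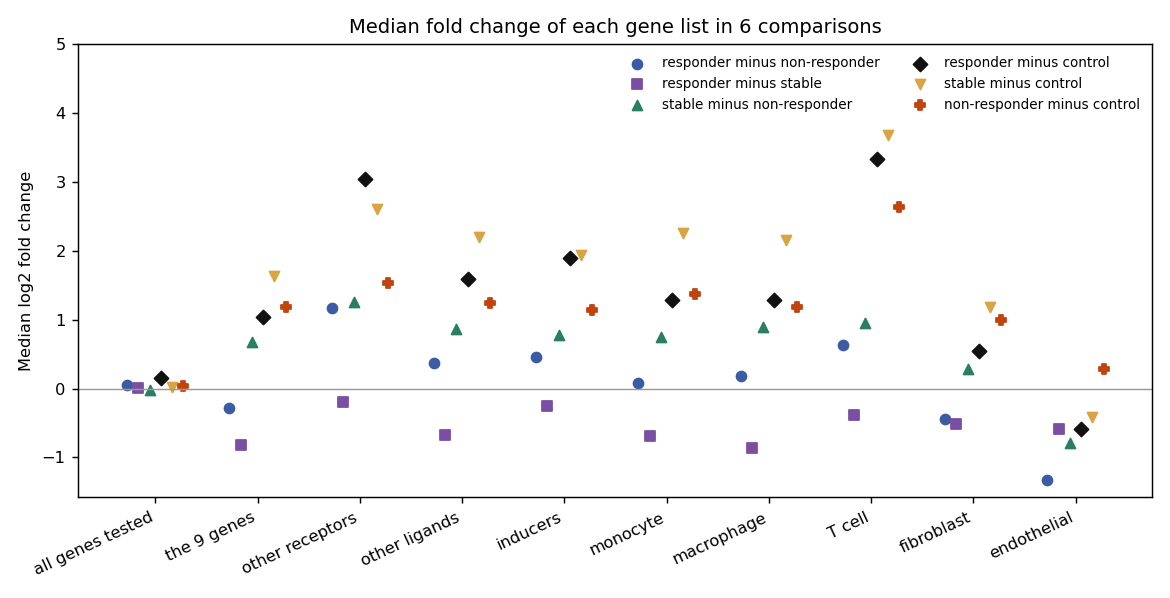
Median log2 fold change (vertical axis) of all tested genes, the 9 genes and 8 further lists in the 6 comparisons, 1 symbol per comparison. The 9 genes have medians of 1.63, 1.03 and 1.19 against controls in stable tumours, responders and non-responders, and -0.82 for responders against stable tumours.

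The genes whose levels were most like those of each member were sought over 25 tumours, after subtracting each group's mean, as the highest Pearson r of log2 CPM among 13229 protein-coding genes (13230 for Csf2). The tumours share library depth and composition, so these values are a description. Ccl2 was closest to its neighbour Ccl7 (r = 0.89), and Ccl7 to Lgals8 (0.89) and Ccl2. The nearest genes of Ccl8 were Fcgr4 (0.92), C1qc (0.92) and Pnp (0.92), and Ccl12 was nearest to Tgfbr2 (0.87), Lmo4 (0.85) and Arl14ep (0.84). Ccr2 was nearest to Clec12a (0.91), Lsp1 (0.89) and Ly86 (0.89). Cx3cl1 was nearest to Pilrb2 (0.85), Tnfsf14 (0.84) and S1pr2 (0.84), and Cx3cr1 to Nebl (0.80), Fcgrt (0.80) and Rgs3 (0.80). Csf1 was nearest to Slc2a9 (0.91), Nfam1 (0.90) and Pld4 (0.89), and Csf2 to Cd200r4 (0.80), AA467197 (0.80) and Msr1 (0.76).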

How the data were processed

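Bulk RNA sequencing of 25 tumours was used: 8 responders, 6 stable, 6 non-responders and 5 IgG2b controls, grouped by the labels and numbered in record order, which pairs none. The authors deposited 1 estimated count (RSEM expected count) per gene and tumour without normalization. Fractions occurred in 5.64% of values, and all were rounded before the count models. The authors also deposited RPKM values, of which 19518 unique symbols were used and without their gene lengths or denominator. The tools bcl2fastq 2.17, Trimmomatic, STAR 2.5.1 and RSEM 1.2.22 and the build mm10 are named in the submitters' processing notes. The labels name a stranded total RNA kit but give the molecule as polyA RNA, which was not resolved. Gene positions are from GENCODE release M21 (GRCm38), whose gene identifiers matched.

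Differences were tested with edgeR 4.0.16 in R 4.3.3: filterByExpr by group (18031 genes kept), TMM scaling, 4 group means over 25 tumours, robust quasi-likelihood F tests for 6 comparisons, two-sided, with Benjamini-Hochberg adjustment over all tested genes. Standard errors come from the fold change and its F statistic. The pipeline was run on simulated counts with the same gene means in all groups, apart from fold changes set in advance. Those counts lacked the difference in composition between responders and other groups, so the run does not bear on it. CPM is relative to TMM-scaled libraries, and log2 CPM used a prior count of 2. Alternatives were RLE scaling, DESeq2 1.42.0, limma 3.58.1 on log2(RPKM + 1) and log2(RPKM + 0.1) for genes over 0.5 RPKM, no filter, a stricter filter (1 CPM in 8 tumours, mean count 50), protein-coding genes alone, the protein-coding share as a covariate, fits of the 2 groups alone, exact permutation tests, and leaving out each tumour. Total counts were 8.76 to 34.3 M. The TMM-scaled libraries, on which CPM and the edgeR tests rest, ran from 4.48 M (responder 1, TMM factor 0.339) to 36.5 M (control 4). Csf2 with 0 to 60 counts is the least precise member.

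The 9 genes and the gene lists were chosen with earlier results of these data known. 2 genes of the lists are not reported here, and the lists' counts and medians are without them. All 9 members were named. Of the lists, the called genes with the largest changes were named by rule (at most 3 per list and comparison, mean of at least 1 CPM), and Csf1r, Ccr1, Il34, Il3, Ctla4, Fos, Mertk, Ly6c2 and the other list genes outside that rule were named after their values were seen.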

Additional observations from a re-analysis of the deposited data

Results flagged for a closer look

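Within the 36 combinations of gene and group, 8 had a tumour at an end of the range whose distance to the next tumour took up more of the group's range than Dixon's critical value allows. The rule's rate of about 1 in 20 groups assumes independent values with a normal spread. Here CPM was linear and genes moved together, so the 8 cannot be set against that rate. Responder 5 was the highest responder in 5 of them: Ccl2 with 37.4 CPM (the next responder had 13.4), Ccl7 with 28.2 (next 12.2), Ccl12 with 15.6 (next 5.01), Ccr2 with 236 and Cx3cr1 with 134 (next 49.5). Its protein-coding share of counts was 87.0%, against 23.8% to 74.3% in the other responders. Control 5 was the highest control for Ccr2 with 86.2 CPM, where the next control had 34.2. Non-responder 6 was the highest non-responder for Ccl12 with 17.3 CPM (next 9.02). Stable tumour 1 was the lowest stable tumour for Ccl2 with 14.5 CPM (next 23.7). The part of library composition in these values was not tested.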

How the results depend on the processing

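No paired analysis was run because the labels name no pairing between tumours.

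Between responders and non-responders edgeR called 0 of the 9 genes, against 1 with DESeq2, with RLE scaling, with the stricter filter and with protein-coding genes alone, 2 with limma on either RPKM scale, and 0 to 5 on leaving out 1 tumour, the 5 being without responder 5, with 1 without responder 6, stable tumour 4 or non-responder 4, 5 or 6. With protein-coding share entered as a covariate, all genes called in that comparison went from 8823 to 1810, and the log2 fold changes of Ccl2, Ccl8, Ccl12 and Ccr2 turned positive (0.21, 0.25, 0.045 and 0.46). Responder group and share nearly coincide, so fits with this covariate cannot tell them apart, and neither can fits without responder 5. Ccr2 also turned positive with the stricter filter (0.0144) and without responders 1 and 4 (0.12), and on leaving out 1 tumour it ran from -0.41 to 0.17 and Ccl2 from -0.72 to 0.0292.

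Between responders and stable tumours, calls went from 6891 of all genes and 4 of the 9 to 0 and 0 with that covariate, to 4018 and 1 without responders 1 and 4 (added after seeing the data), and the count of the 9 was 3 to 8 on leaving out 1 tumour. Between responders and controls, the covariate moved 4 of the 9 to 9 and all calls from 11723 to 8171. Ccl12 turned negative there without a filter (-0.0636), with the 2 groups alone (-0.0145), with limma (-0.13 and -0.23) and in the permutation test's mean difference (-0.42), and ran from -0.49 to 0.24 on leaving out 1 tumour. Between non-responders and controls, 6 of the 9 became 3 without a filter and 2 with the 2 groups alone, where all calls went from 2500 to 1559. On leaving out 1 tumour these were 2 to 8 and 1570 to 4237, the highest of all calls being without non-responder 3 and the lowest without control 4, with similar counts without control 1 or non-responder 4. Between stable tumours and non-responders all calls went from 2693 to 1470 at the lowest (without non-responder 2, with similar counts without non-responder 3 or stable tumour 3) and 3804 at the highest, and Ccl12 ran from -0.0079 to 0.43. The cause was not tested. Depth limits Csf2 most.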
